A study of Mus musculus with 16 samples.

Results

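Cytosolic ribosomes are built from rRNA and a fixed set of proteins, and the genes of these proteins were followed in the brains of aged mice given adropin. The protein-coding genes of the deposited count table whose symbols begin with Rpl or Rps followed by a number, together with Rplp0, Rplp1, Rplp2 and Rpsa, gave 84 genes of 40481 in all. Of these, 77 were core genes, 46 for proteins of the large (60S) subunit and 31 for proteins of the small (40S) subunit. The other 7 were paralogues of a core gene, Rpl3l, Rpl7l1, Rpl10l, Rpl22l1, Rpl36al, Rpl39l and Rps27l. The rule reads gene names and gene types.

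The large subunit joins amino acids into the new chain and the small subunit reads the mRNA. A ribosome holds most of its proteins in equal number, and their mRNAs are known for a pyrimidine tract at the cap, the TOP motif, through which mTORC1 and LARP1 control their translation. Several paralogues can stand in for a core protein in particular tissues, such as Rpl3l in muscle and Rpl10l in the male germ line. Brain neurons translate part of their mRNA in dendrites and axons, where ribosomal protein mRNAs are also found.

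RNA was taken from brain tissue of 16 male C57BL/6J mice bought at 18 months of age. Adropin is a small secreted peptide made from the Enho gene, and 8 mice received its secreted domain by daily intraperitoneal injection at 90 nmol/kg/d. The other 8 received the saline diluent on the same schedule. Injections started 2 weeks before behavioural tests and went on during them, tissue was collected after a fast of 6 h, and the 8 mice per group came from study groups of 15. Each library is brain tissue of 1 mouse, and the sources do not say which regions it held. A level averages over the cells of that tissue, and fewer cells of a type and less RNA per cell cannot be told apart. Total counts per mouse ranged from 35026503 to 70314050. Brain markers were present throughout, with neuron markers summing to between 5064 and 6717 counts per 1000000 (CPM) in each mouse. Levels are given below as CPM after scaling by the TMM method, which sets libraries to a common scale from the bulk of their genes.

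A pyrimidine tract was looked for in RefSeq promoter sequences on GRCm38.p6, which were used for 64 of the 84 genes. The others had no sequence there or lay on a chromosome left out for these genes but not for the whole table. Each window covered 30 bases of the transcribed strand, 15 before the annotated start and 15 from it. The search was for a C followed by 4 bases that are each C or T, beginning within 3 bases of the start, on the transcribed strand only since the motif belongs to the mRNA. It was found in 24 of the 64 genes, or 37.5%, against 11.6% of the 27025 genes in the promoter table. With no tolerance around the start it was found in 12 of the 64 and in 2.49% of all genes. The windows below are those of the genes on which the later results turn, with the longest run of C and T in capitals: 3 paralogues beside their core genes, Rpl7l1, and the core genes Rps6, Rpl14, Rpl35a, Rps15a and Rplp0.
Rps27: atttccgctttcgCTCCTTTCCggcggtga
Rps27l: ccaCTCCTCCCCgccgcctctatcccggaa
Rpl22: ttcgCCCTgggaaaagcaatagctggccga
Rpl22l1: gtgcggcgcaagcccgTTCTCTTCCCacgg
Rpl36a: gtgcacccaggcaccgcctataaaCTTCCg
Rpl36al: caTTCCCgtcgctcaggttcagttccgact
Rpl7l1: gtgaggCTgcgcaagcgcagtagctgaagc
Rps6: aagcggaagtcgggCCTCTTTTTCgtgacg
Rpl14: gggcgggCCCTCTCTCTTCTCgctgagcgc
Rpl35a: gcggggcgtgcgTCCCacaaggccgcgcgg
Rps15a: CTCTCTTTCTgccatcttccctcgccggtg
Rplp0: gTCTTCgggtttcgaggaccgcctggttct

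On GRCm38.p6 these windows lie at chr3:90213634-90213663 on the minus strand (Rps27), chr9:66946071-66946100 on the plus strand (Rps27l), chr4:152325711-152325740 on the plus strand (Rpl22) and chr3:28805493-28805522 on the plus strand (Rpl22l1). Those of the other paralogues and of Rpl36a lie at chrX:134585639-134585668 on the plus strand (Rpl36a), chr12:69184053-69184082 on the minus strand (Rpl36al) and chr17:46782642-46782671 on the minus strand (Rpl7l1). The core gene windows lie at chr4:86857353-86857382 on the minus strand (Rps6), chr9:120571502-120571531 on the plus strand (Rpl14), chr16:33056438-33056467 on the plus strand (Rpl35a), chr7:118116133-118116162 on the minus strand (Rps15a) and chr5:115559452-115559481 on the plus strand (Rplp0). The longest run was of 10 bases in Rps6, 14 in Rpl14 and 9 in Rps27, and each of these runs crossed the annotated start. In Rpl22l1 a run of 10 bases began at the second transcribed base, and Rpl7l1 had no run longer than 2. A gene without the motif in this window may start elsewhere than annotated.

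The filter of more than 1 CPM in at least 7 mice kept 80 of the 84 genes, 76 core genes and 4 paralogues. The heart and skeletal muscle paralogue Rpl3l had between 4 and 24 counts per mouse with a median of 13. Rpl39l had a median of 1 count and was at 0 in 8 mice, and the germ line paralogue Rpl10l was at 0 in 13 mice and reached 2 counts at most. Rpl24 was the 1 core gene left out, with between 8 and 46 counts per mouse. Its annotated exons share 47.0% of their bases with Gm28037 on the same strand, and reads in shared exons were not counted for either gene, so its level is uncertain.

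The first comparison asked whether adropin moved the levels of these genes. In adropin-treated mice all 80 genes tested had a log2 fold change below 0, where 50.8% of the 14949 genes tested had one. The 80 genes rose and fell together from mouse to mouse, so their signs are not separate observations. The changes were small, with a median of -0.12 over the 76 core genes, or 0.917 times the saline level, and a range from -0.22 to -0.04. None of the 80 had an unadjusted p below 0.05 (edgeR's quasi-likelihood test), the background being 3.99% of all genes, and none passed the study's cut-off of a fold change above 1.5 with p below 0.05, which 0.421% of all genes passed. The smallest edgeR adjusted p of the 80 genes was 0.874, and no gene of the 14949 had one below 0.05. The groups overlapped for every one of the 80 genes, and 0.00669% of all genes had groups that did not overlap. By limma-voom and by DESeq2 the count of genes with an unadjusted p below 0.05 was 0 as well.

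**Figure D1:**
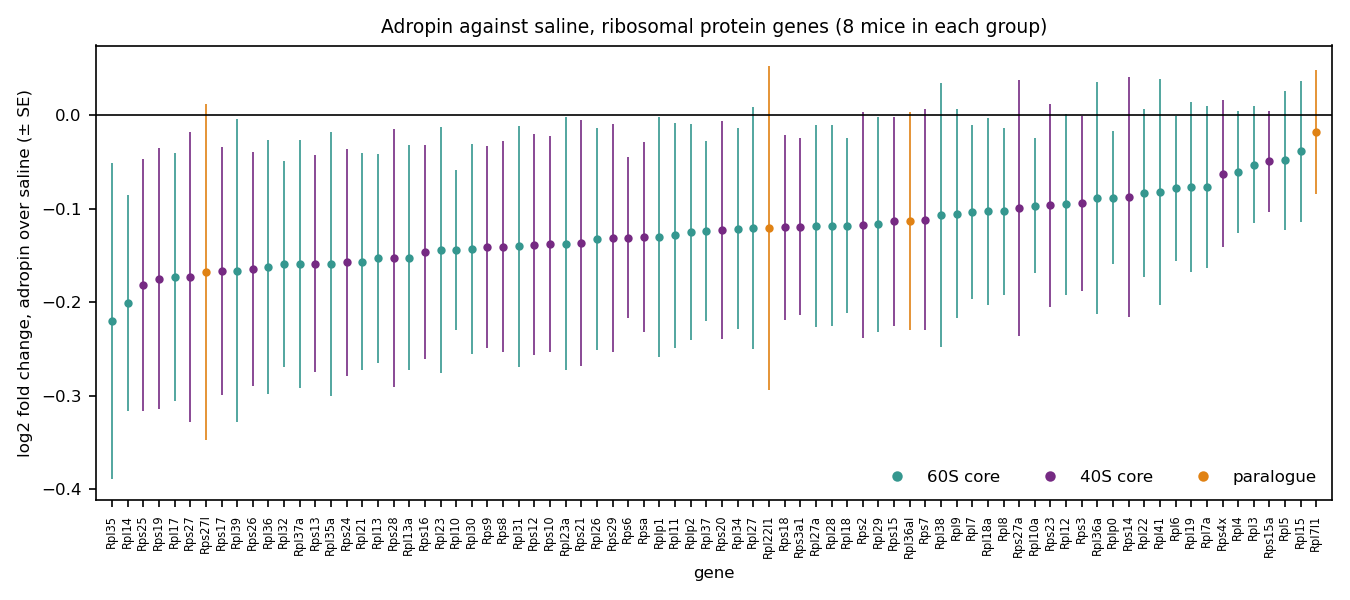
Log2 fold change of adropin over saline for 78 of the 80 ribosomal protein genes tested (y axis, with standard error) in order of size (x axis), coloured as 60S core, 40S core and paralogue. Every point is below 0, from -0.22 for Rpl35 to -0.02 for Rpl7l1, and most error bars stay below 0 while no gene has a p below 0.05.

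Rpl14, Rpl10, Rps6 and Rpl32 were among the genes with the smallest p. Rpl14, a large subunit protein, had a lowest, median and highest level of 176, 207 and 289 CPM in adropin-treated mice and of 199, 232 and 334 CPM in saline-treated mice, a log2 fold change of -0.20 (SE 0.12, edgeR unadjusted p = 0.0986). Rpl10, which lines the peptidyl transferase centre and joins the large subunit late in its maturation, had a log2 fold change of -0.14 (SE 0.09, edgeR unadjusted p = 0.110). Rps6, the small subunit protein phosphorylated by S6 kinases downstream of mTORC1, had 132, 155 and 183 CPM in adropin and 146, 159 and 209 CPM in saline (log2 fold change -0.13, SE 0.09, edgeR unadjusted p = 0.144). For each of these genes the spread between mice of a group was larger than the distance between the group medians.

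The 5 genes nearest to no difference were Rpl7l1, Rpl15, Rpl5, Rps15a and Rpl3, with log2 fold changes from -0.02 to -0.05. Rps15a, a small subunit protein, had 99.4, 109 and 116 CPM in adropin and 103, 109.5 and 125 CPM in saline, so that the medians were close and the ranges shared most of their span. Rpl3, which reaches into the peptidyl transferase centre, had 371, 395 and 481 CPM in adropin and 389, 417 and 483 CPM in saline. These genes were also among the steadiest over the 16 mice, with a coefficient of variation of 6.76% for Rps15a and 8.28% for Rpl3, against 28.7% for Rpl35. The gene with the largest change, Rpl35 (-0.22, SE 0.17, edgeR unadjusted p = 0.210), shares 66.2% of its exon bases with Wdr38 on the other strand, and the sources do not say whether counting used strand, so its counts are uncertain.

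The genes were also grouped by place in the ribosome. The stalk proteins Rplp0, Rplp1 and Rplp2, which recruit elongation factors, had log2 fold changes of -0.09, -0.13 and -0.12. Rplp1 had 371, 423 and 616 CPM in adropin-treated mice and 416, 454 and 753 CPM in saline-treated mice, with both groups wide and overlapping. Of the 2 proteins that carry the 5S rRNA and can bind Mdm2, Rpl5 had -0.05 and Rpl11 had -0.13. Over the 3 genes of the peptidyl transferase centre (Rpl3, Rpl8, Rpl10) the median was -0.10. Around the exit tunnel, through which the new chain leaves, the 8 genes Rpl4, Rpl17, Rpl19, Rpl23a, Rpl26, Rpl31, Rpl35 and Rpl39 had a median of -0.14. At the mRNA entry site the 3 genes Rps2, Rps3 and Rps9 had a median of -0.12. These medians all lay close to that of the core. They too moved when saline mice 3 and 8 were left out. The medians were then -0.007 for the peptidyl transferase centre, 0.035 for the exit tunnel and 0.015 for mRNA entry, beside 0.026 for the core. Rps27a, made as a fusion with ubiquitin, had -0.10 and Rpl13a, which can leave the ribosome as part of the GAIT complex, had -0.15. No gene of these groups had an unadjusted p below 0.05 in edgeR's test.

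The subunits were close to each other. Over the 45 core genes of the large subunit the median log2 fold change was -0.12, and over the 31 of the small subunit it was -0.13. The mean of the large subunit genes less that of the small subunit genes, on the log2 scale and centred on the 16 mice, stayed between -0.04 and 0.03 in every mouse, while the core mean itself spanned 0.78, a factor of 1.71 between the lowest and the highest mouse.

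The core genes rose and fell together from mouse to mouse, and this spread was wider than the distance between groups. The mean log2 level of the 76 core genes, centred on the 16 mice, had a lowest, median and highest value of -0.27, -0.11 and 0.31 in adropin-treated mice and of -0.18, -0.06 and 0.51 in saline-treated mice. Its group means were -0.06 ± 0.19 and 0.06 ± 0.26 (SD over 8 mice), a difference of -0.11. Saline mice 3 and 8, at 0.51 and 0.38, and adropin mouse 6, at 0.31, stood above the rest. Core genes took from 1.23% to 1.91% of all counts in adropin-treated mice and from 1.32% to 2.09% in saline-treated mice.

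**Figure D2:**
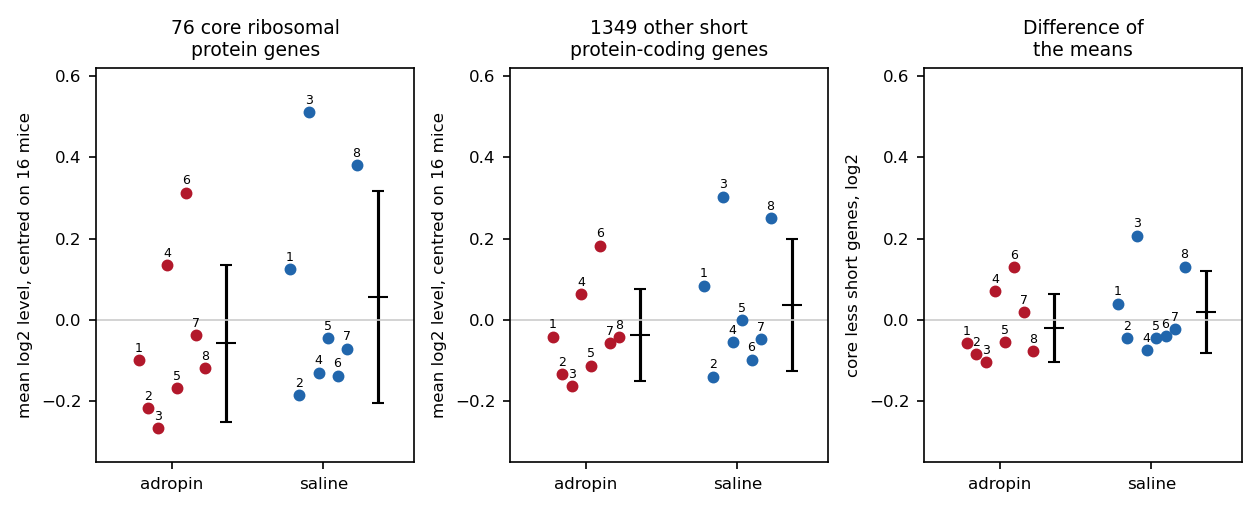
Mean log2 level of the 76 core ribosomal protein genes, of 1349 other short protein-coding genes, and the difference of these means (y axes, log2, the first and second centred on the 16 mice) for each mouse by group, numbered by replicate, with the mean and SD of each group as a bar. Saline mice 3 and 8 and adropin mouse 6 are highest in each panel, and the groups overlap in all 3.

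The direction of the difference turned when saline mice 3 and 8 were left out. These were also the 2 mice with the most RNA of choroid plexus markers, at 329 and 2465 CPM summed over Ttr, Kl, Clic6, Prlr, Sostdc1 and Folr1, where no other mouse exceeded 73.6. All 5 of those markers tested were lower in adropin-treated mice with an unadjusted p below 0.05 in edgeR's test, as were 2.13% of all genes (median log2 fold change of the 5, -1.31). Without both mice, 4 of the 5 were below 0 with a median of -0.28, and 2 had such a p, as did 2.87% of all genes. Without saline mouse 3, 74 of the 80 genes were below 0, against 49.7% of all genes, with a core median of -0.05. Without both mice, an alternative chosen after the data were seen, 13 of the 80 genes were below 0, against 47.1% of all genes, and the core median was 0.03. Both mice had the highest core means and both were saline-treated, so leaving them out lowers the saline side. Adropin mouse 6, the next highest at 0.31, was kept. The 6 other saline mice had a core mean of -0.07 ± 0.11 (SD), close to that of the adropin group. The part of choroid plexus tissue in the ribosomal protein levels was not tested.

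Markers of cell types also moved with the core mean, to varying degrees. The mean log2 level of the choroid plexus markers had a Pearson correlation of 0.69 with it over the 16 mice (Spearman 0.48), and 0.34 without the 2 mice farthest from the median. For astrocyte markers the Pearson correlation was -0.69 (Spearman -0.48) and -0.34 without the 2 farthest mice, and for microglia markers -0.56 and -0.49. Neuron markers had 0.47, and 0.55 without the 2 farthest mice, but -0.10 within adropin and 0.78 within saline. Without the 2 farthest mice blood markers went from 0.40 to 0.64, endothelium from 0.24 to 0.45, cerebellum from 0.35 to 0.15 and oligodendrocytes from 0.10 to -0.07. Endothelium markers had -0.26 within adropin and 0.73 within saline, oligodendrocyte markers had -0.42 and 0.44, and cerebellum markers had -0.05 and 0.45, so that these 3 lists, like that of neurons, differed in sign between the groups. Saline mouse 8 was also high in cerebellum markers, at 497 CPM in sum against at most 50.3 in any other mouse, and 3 of the 6 cerebellum markers did not pass the filter. The share of counts at Gm42418, a locus that overlaps an rRNA pseudogene, had a Pearson correlation of -0.58 with the core mean on the log2 scale (Spearman -0.54), and the total count one of -0.14. With that share as a covariate the core median was -0.03 and 70 of the 80 genes were below 0, against 49.2% of all genes. With the first or second number of the mouse labels, whose meaning is not given, as a block, the core median was -0.22 or -0.18 and all 80 genes were below 0, against 50.2% and 49.9% of all genes. The share of mitochondrial transcripts and the other short genes, given further on, had higher correlations than any of these. Of 12 such relations computed none was set against chance.

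**Figure D3:**
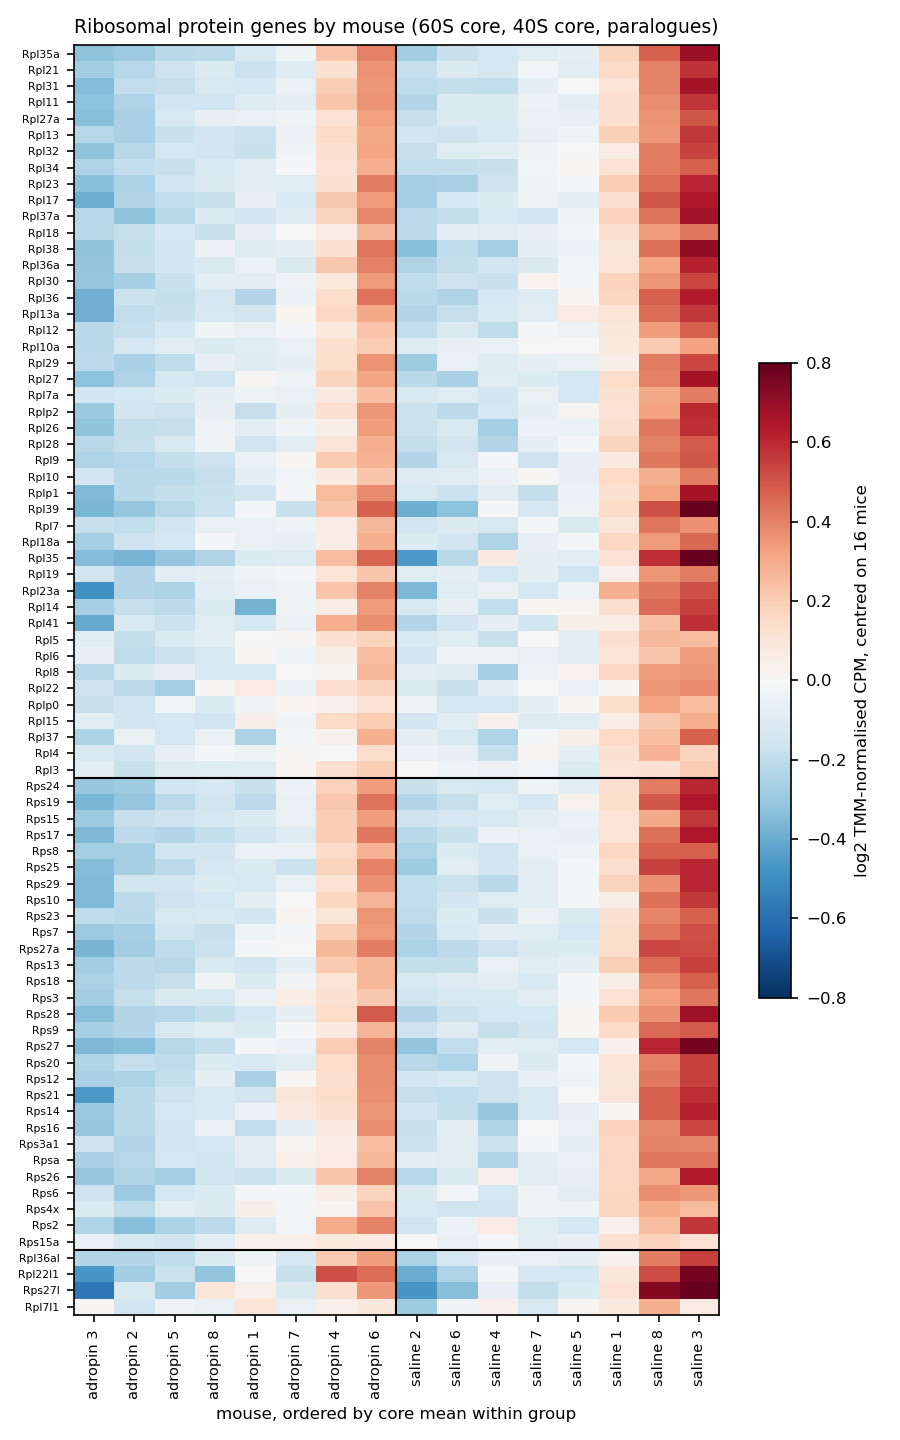
Log2 TMM-normalised CPM of 78 of the 80 ribosomal protein genes tested (rows, centred on the 16 mice), for 60S core genes, 40S core genes and paralogues from top to bottom. Columns are the mice of each group in order of their core mean. Nearly every gene is high in saline mice 3 and 8 and in adropin mice 4 and 6, and most are in saline mouse 1. Rps15a and Rpl7l1 are pale throughout.

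Covariation was measured over the 16 mice after the group means were subtracted, so that it holds no difference between the groups. The Pearson correlation of a core gene with the mean of the other core genes had a median of 0.979. Of the 76 core genes 73 had a value above 0.9, against 3.61% of the 14869 other genes tested. The median correlation over the 2850 pairs of core genes was 0.949, and it was 0.951 between genes of different subunits, 0.944 within the large and 0.956 within the small subunit. These values describe 16 libraries, whose genes share depth and scaling. They changed little by Spearman's measure (median 0.948), within adropin-treated mice alone (0.976) or within saline-treated mice alone (0.984).

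The 5 genes closest to the others were Rpl35a (r = 0.996), Rps24 (0.993), Rpl21 (0.991), Rpl31 (0.990) and Rps19 (0.990). Rpl35a had 108, 121 and 178 CPM in adropin-treated mice and 111, 127 and 217 CPM in saline-treated mice, wide ranges that overlapped. Among core genes the 5 lowest were Rps15a (0.796), Rpl3 (0.876), Rpl4 (0.878), Rpl37 (0.909) and Rpl15 (0.913), and Rplp0 (0.914) stood next. Each of these 6 varied less between mice than most core genes, with coefficients of variation from 6.76% to 15.1%. The 24 tested genes with the pyrimidine motif near the start had a median correlation of 0.980 and a median log2 fold change of -0.12, and the 36 without it had 0.974 and -0.12.

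Fau and Rack1, which lie outside the name rule, also encode ribosome components. Fau, whose product is cut into a ubiquitin-like protein and the small subunit protein eS30, had the highest correlation with the core mean of all other genes (r = 0.994) and a log2 fold change of -0.10. It was followed by Atp5o (0.991), a subunit of the mitochondrial ATP synthase, and by Uqcrfs1 (0.990), the Rieske iron-sulphur protein of respiratory complex III. Rack1, a scaffold on the small subunit, had a correlation of 0.879.

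Other genes of the translation machinery moved with the core to different degrees. Of 17 translation factors and other genes known for TOP mRNAs, 14 had a log2 fold change below 0, against 50.8% of all genes. The median was -0.08, and none had p below 0.05 in edgeR's test, where 3.99% of all genes had one. Without the 2 saline mice high in choroid plexus markers, 10 of the 17 were below 0, against 47.1% of all genes. The median was then -0.006, and without saline mouse 3 alone it was -0.04. Within this list Eef1b2, an exchange factor of elongation factor 1, had a correlation of 0.972 with the core mean, while Eef1a1, the elongation factor itself, had -0.15, Eef2 had -0.62 and Eif4b had -0.83. These values thus spanned most of the range that a correlation can take. Of 36 ribosome biogenesis genes tested (37 were listed), 21 were below 0 with a median of -0.01, a share near that of all genes, and none had p below 0.05. Nhp2 and Nop10 of the H/ACA particle reached correlations of 0.960 and 0.929, and Tsr1, which matures the small subunit, had -0.93. Of 17 regulators such as Mtor, Rptor, Larp1 and Myc, 7 were below 0, against 50.8% of all genes, and none had p below 0.05. The nearest to it was Mdm2, at a log2 fold change of -0.12 (edgeR unadjusted p = 0.0559). Mtor had a correlation of -0.85 with the core mean and Larp1 had 0.76.

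Genes of other complexes with short mRNAs were set beside the core. The 78 mitochondrial ribosomal protein genes, which serve a different ribosome, had a median log2 fold change of -0.07 and 70 were below 0 and 8 above. The mean of that list had a correlation of 0.980 with the core mean, while single genes went down to -0.46. The 93 nuclear genes of the respiratory chain and ATP synthase had a median of -0.10 with 83 below 0 and 10 above, and the list mean had a correlation of 0.985, with single genes down to -0.65. None of the former and 2 of the latter had an unadjusted p below 0.05 in edgeR's test, where 3.99% of all genes had one and 50.8% were below 0. The 14 transcripts of the mitochondrial genome had a median of -0.26, all below 0, below the core median of -0.12. Of these 14, 2 had an unadjusted p below 0.05 in edgeR's test and 1 passed the study's cut-off, which 0.421% of all genes passed. Their share of counts (from 3.25% to 7.67%) had a correlation of 0.934 with the core mean on the log2 scale (Spearman 0.865, and Pearson 0.863 without the 2 mice farthest from the median). This share was 7.51% and 7.67% in saline mice 3 and 8 and at most 5.98% in any other mouse. Without these 2 mice, 8 of the 14 transcripts were below 0 with a median of -0.0032 and none had an unadjusted p below 0.05 in edgeR's test, as against 2.87% of all genes. Of the mitochondrial ribosomal protein genes 26 of 78 were then below 0 and of the respiratory chain genes 17 of 93, against 47.1% of all genes, so that these lists too turned with the same mice as the core. All these are lists in the same 16 libraries, and the values were not set against chance.

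Gene length ordered these values over the whole transcriptome. The other 13475 protein-coding genes outside the mitochondrial genome were divided into 10 equal groups by summed exon length. In the shortest group (median 1462 bases) the median correlation with the core mean was 0.69, the median log2 fold change was -0.08, and 80.3% of genes were below 0. In the longest group (median 12762 bases) these values were -0.65, 0.08 and 23.0%, and each of the groups between lay in order of length for all 3 values. Ribosomal protein genes are short, with a median of 1806 bases, and 69 of the 80 fell in the 3 shortest groups. Still 76 of the 80 had a log2 fold change below the median of other genes in their own length group. That comparison was not matched for level, since the ribosomal protein genes had a median of 181 CPM and the shortest group 13.5 CPM.

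**Figure D4:**
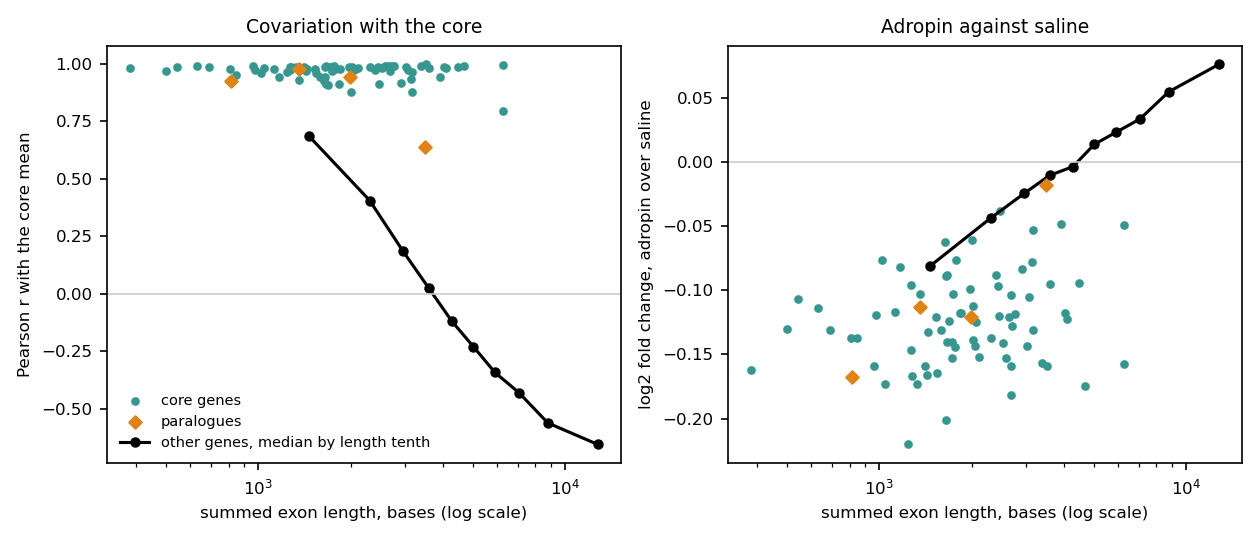
Pearson correlation with the core mean (left) and log2 fold change of adropin over saline (right) against summed exon length (x axes, bases, log scale) for 78 core genes and paralogues as single points, with the medians of the other protein-coding genes in 10 length groups as a line. The line falls from 0.69 to -0.65 on the left and rises from -0.08 to 0.08 on the right, and most core genes lie above it on the left and below it on the right whatever their own length.

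The 1349 genes of the shortest group gave a reference for this gradient. Their mean log2 level followed the core mean with a Pearson correlation of 0.990 over the 16 mice (Spearman 0.985), 0.985 within adropin, 0.993 within saline and 0.978 without the 2 mice farthest from the median. Their own difference between groups was -0.08, and with saline mice 3 and 8 left out their median log2 fold change was 0.02. Of the 1349 genes, 544 were then below 0, against 47.1% of all genes. The short end of the gradient in log2 fold change thus turned with the same mice as the core. The core mean less the mean of the short genes averaged -0.02 ± 0.08 over the adropin-treated and 0.02 ± 0.10 over the saline-treated mice (SD over 8 mice), a difference of -0.04 that was smaller than the spread between mice. With the short gene mean as a covariate, 31 of the 80 genes had a log2 fold change below 0, against 48.3% of all genes, and the core median was 0.01. Under it Rpl38, a large subunit protein, had an unadjusted p below 0.05 at a log2 fold change of 0.08 (edgeR unadjusted p = 0.0448, adjusted p = 0.998), a p that 4.07% of all genes passed under this covariate. The short genes held 93.1% of the variance of core genes around their group means. These uses of the short genes were chosen after the data were seen, and the part of RNA quality, library preparation or cell composition in the gradient was not tested.

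What remained of the covariation was weaker. With the short gene mean regressed out of every gene, the median correlation of a core gene with the others was 0.522 and the median over pairs was 0.296, with pairs from -0.80 to 0.92. Rps24 (0.906) and Rpl35a (0.890) kept the highest values, so that they followed the other core genes beyond what the short genes did. Rpl3, low before, had 0.732. Rpl22 (-0.10) and Rpl39 (-0.12) had values below 0.

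**Figure D5:**
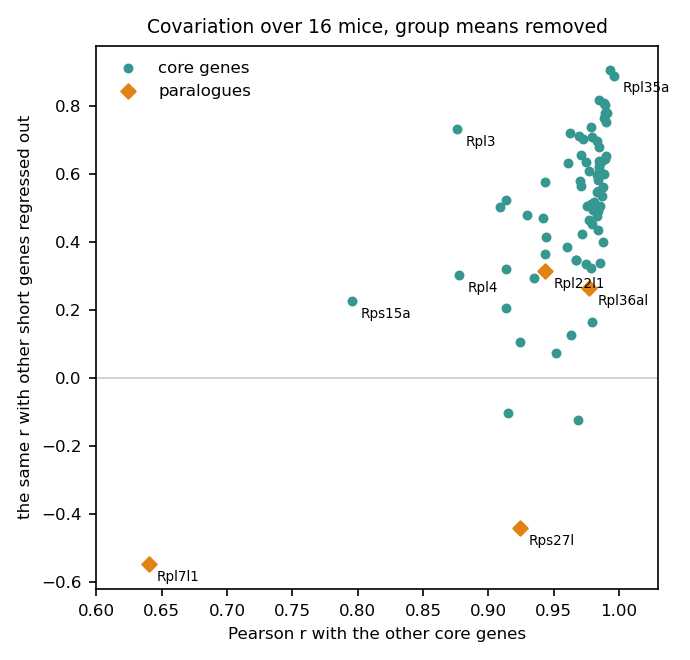
Correlation of 78 ribosomal protein genes with the other core genes over 16 mice (x axis) against the same correlation with the mean of 1349 other short genes regressed out of every gene (y axis), for core genes and paralogues. Most core genes lie at the right and spread from 0.3 to 0.9 on the y axis, while the paralogues Rps27l and Rpl7l1 lie lowest, at -0.44 and -0.55.

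The 4 paralogues detected were set against the core. Rps27l, a p53-responsive copy of Rps27, had 4.72, 6.85 and 8.91 CPM in adropin-treated mice and 5.08, 6.61 and 12.2 CPM in saline-treated mice, and the wide saline range came from mice 3 and 8. Rpl22l1, which can replace Rpl22 and whose level that gene is known to restrain, had 15.9, 19.5 and 31.3 CPM in adropin and 16.7, 20.8 and 37.3 CPM in saline. Rpl36al, an intronless copy of Rpl36a, had 24.4, 26.4 and 36.2 CPM in adropin and 24.1, 27.6 and 42.0 CPM in saline. Rpl7l1, which acts in assembly of the large subunit, had 38.5, 42.6 and 46.2 CPM in adropin and 35.2, 43.7 and 52.1 CPM in saline. The groups overlapped for each of the 4.

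Against all genes their log2 fold changes were -0.17 (SE 0.18) for Rps27l, -0.12 (SE 0.17) for Rpl22l1, -0.11 (SE 0.12) for Rpl36al and -0.02 (SE 0.07) for Rpl7l1. Relative to the summed counts of the core genes, with no other scaling, they were -0.02 (SE 0.11) for Rps27l, 0.005 (SE 0.10) for Rpl22l1, 0.009 (SE 0.06) for Rpl36al and 0.10 (SE 0.09) for Rpl7l1. On that scale the median of all genes was 0.10. None of the 4 had an unadjusted p below 0.05 in edgeR's test, the background being 1.73% of all genes, and the smallest of them was 0.314, for Rpl7l1. The standard errors leave room for differences of either sign.

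From mouse to mouse the paralogues parted from one another. With the other core genes Rpl36al had a correlation of 0.977, Rpl22l1 of 0.943 and Rps27l of 0.924, within the range of the core, while Rpl7l1 had 0.640 and was lower than every core gene. Each was also compared with its own core gene: 0.976 for Rpl36al and Rpl36a, 0.936 for Rps27l and Rps27, 0.878 for Rpl22l1 and Rpl22, and 0.680 for Rpl7l1 and Rpl7. With the short genes regressed out, Rpl22l1 kept 0.316 and Rpl36al 0.266, and Rps27l and Rpl7l1 went to -0.44 and -0.55. The log2 ratio of each paralogue to its core gene differed between groups by at most 0.08 in size, for Rpl7l1 to Rpl7, within the spread between mice (SD 0.12 with adropin and 0.16 with diluent).

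Levels were compared between genes as CPM per 1000 bases of summed exons, averaged over the 16 mice. Of the 76 core genes tested, the highest 5 were Rplp1 with 969 ± 202, Rps15 with 576 ± 102, Rpl36 with 396 ± 88.0, Rps29 with 335 ± 65.7 and Rpl38 with 330 ± 75.8 CPM per 1000 bases (SD over 16 mice). Rps29 and Rpl38 did not differ beyond their spread. The lowest 5 of those tested were Rpl18 with 30.0 ± 4.37, Rpl22 with 29.6, Rps19 with 27.3 ± 6.27, Rpl23a with 17.6 ± 3.65 and Rps15a with 17.6 ± 1.19. The first 3 of these overlapped in their spread, as did the last 2. All of these proteins are part of the same particle, and the annotated lengths, which sum every exon of every transcript, and the discarding of reads that also match pseudogenes both enter these levels. By the longest annotated transcript the order changed. Rps21 (424) and Rpl13a (415) then took the places of Rpl36 and Rpl38 among the highest 5, where Rps29 had 503, and Rps13 and Rps20 (33.8) those of Rpl22 and Rps19 among the lowest 5, with Rps19 at 48.1.

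The paralogues tested lay near or below the lowest core genes tested on this scale, at 21.6 ± 3.98 for Rpl36al, 12.3 ± 1.08 for Rpl7l1, 11.4 ± 3.18 for Rpl22l1 and 8.90 ± 2.59 for Rps27l. Per length Rps27 stood 15.6-fold above Rps27l, Rpl7 stood 6.57-fold above Rpl7l1, Rpl22 stood 2.60-fold above Rpl22l1 and Rpl36a stood 2.48-fold above Rpl36al. By the longest annotated transcript these folds were 17.1, 8.24, 3.54 and 4.77 in the same order, so that the last pair moved most and passed that of Rpl22. The count table also lists 251 pseudogenes named for these genes, of which 224 had a count, and together they held 2.16% of the counts of genes and pseudogenes. Tlcd1 shares 59.7% of the exon bases of Rpl23a on the other strand, so the low level of Rpl23a is uncertain.

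Rplp0 is often used with Hprt and Ppib to normalise quantitative PCR. Rplp0 had 187, 209 and 230 CPM in adropin-treated mice and 192, 211 and 264 CPM in saline-treated mice (log2 fold change -0.09, SE 0.07, edgeR unadjusted p = 0.234). Over the 16 mice its coefficient of variation was 10.4%, against 13.4% for Hprt and 7.48% for Ppib. Its correlation with the other core genes was 0.914, that of Hprt with the core mean 0.907 and that of Ppib 0.325, so that Rplp0 and Hprt shared the spread of the core and Ppib did less.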

How the data were processed

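Counts of 40481 genes in 16 mice were used. Per the paper's methods, the authors mapped reads to the mouse assembly of Ensembl release 76 with STAR and counted those that aligned uniquely and unambiguously with featureCounts. The counts were deposited without normalisation, and the authors' own CPM table was not used. TMM factors were calculated over all genes, 355 rRNA genes were left out, and a gene was kept if 7 or more mice exceeded 1 CPM. The 14949 genes kept were compared by edgeR 4.0.16 (quasi-likelihood test, Benjamini-Hochberg adjustment, R 4.3.3). Correlations used log2 TMM-normalised CPM (prior count 2). Exon lengths came from GENCODE on GRCm38. Alternatives were limma-voom (limma 3.58.1), DESeq2 1.42.0, other scalings and filters, covariates, label numbers as blocks and leaving out mice. The fit was tested on simulated data. Named genes were all paralogues, the role lists, and the 5 most extreme genes by p, level and correlation. The members and lists were chosen with earlier results of these data known. No source says which animals shared a litter or day, so p-values measure the spread between these mice. Values of some single genes are not reported here.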

Additional observations from a re-analysis of the deposited data

How the results depend on the processing

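The median log2 fold change of the core genes ranged from -0.18 to -0.05 when each mouse was left out in turn, genes below 0 from 74 to 80, genes with an unadjusted p below 0.05 from 0 to 3 and genes past the cut-off stayed at 0. The 3 genes, Rpl10 and Rpl14 among them, had such a p without adropin mouse 6, as did 9.67% of all genes, and 1 gene had one without saline mouse 4 (5.04% of all genes). The correlation of core genes ranged from 0.969 to 0.982, and the core less the short genes from -0.06 to -0.01. With library size only, 1 gene had p below 0.05 (4.01% of all genes). With the first number of the mouse labels as a block, which compares mice only within the 3 numbers found in both groups, the core median was -0.22 and no gene had p below 0.05 (2.19% of all genes). With the second number as a block it was -0.18, and 3 genes had p below 0.05 (Rpl10 and Rps6 among them), as did 2.81% of all genes. The labels give no meaning for these numbers.

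With Gm42418 as a covariate, 70 genes were below 0 and the core median was -0.03, and log2 fold changes turned to 0.014 for Rpl15, 0.031 for Rpl22l1, 0.0057 for Rpl5, 0.019 for Rpl7l1 and 0.0081 for Rps27a. With the other short genes as a covariate, 31 genes were below 0, 1 gene had p below 0.05, and values turned to 0.015 for Rpl11 and Rplp2, 0.039 for Rpl15, 0.086 for Rpl22l1, 0.028 for Rpl36al, 0.030 for Rpl5, 0.036 for Rpl7l1, 0.018 for Rplp1, 0.067 for Rps27a and 0.081 for Rps27l. With the short genes regressed out the correlation of core genes was 0.522. Without saline mice 3 and 8, 13 genes were below 0, and values turned to 0.030 for Rpl11, 0.015 for Rpl13a, 0.046 for Rpl15, 0.115 for Rpl22l1, 0.031 for Rpl35, 0.052 for Rpl36al, 0.035 for Rpl5, 0.042 for Rpl7l1, 0.038 for Rplp1, 0.029 for Rplp2, 0.090 for Rps27a and 0.126 for Rps27l. With single mice left out, Rpl15 ranged from -0.065 to 0.0037, Rpl22l1 from -0.207 to 0.0021 and Rpl7l1 from -0.047 to 0.025. The cause of these turns was not tested. The settings not named here kept every core gene tested in them below 0. At these depths Rpl24, Rpl3l, Rpl10l and Rpl39l did not pass the filter and were not tested.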
